A study of Mus musculus with 6 samples.

Results

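The Wnt ligand genes followed here were the 10 listed members Wnt2, Wnt4, Wnt5a, Wnt5b, Wnt6, Wnt9a, Wnt10a, Wnt10b, Wnt11 and Wnt16, found by their symbols among 27179 genes in a table of RNA sequencing counts. They are a list of names among 19 Wnt genes in the table, drawn up with earlier results of these data known, and no cutoff on their values was applied. They were measured in cancer-associated fibroblasts (CAFs) of 3 mammary tumors from female raGFP-Wnt1 mice, which carry both an MMTV-Wnt1 transgene and a Pdgfra reporter allele that places green fluorescent protein (GFP) in the nucleus of fibroblasts. The MMTV promoter drives Wnt1 in mammary epithelium, so both groups came from tumors with the same oncogenic ligand, and neither a normal gland nor a tumor without the transgene was part of the comparison. GFP-positive CAFs of each tumor were sorted into a CD34 negative and a CD34 positive fraction, giving 6 libraries, 3 per group, with 1 of each fraction from every tumor. The age of the tumor-bearing mice was not given in the sources used here.

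Wnt proteins are secreted, lipid-modified ligands. They are acylated by Porcn in the endoplasmic reticulum, carried to the cell surface by Wls, and bind Frizzled receptors. With the co-receptors Lrp5 and Lrp6 they stabilise beta-catenin, whereas other Wnt proteins act through Ror2, Ptk7 and the planar cell polarity proteins without beta-catenin. In the mammary gland Wnt ligands from epithelium and stroma take part in branching and in the maintenance of progenitor cells, and Wnt1 expressed in the epithelium is a classical cause of mammary tumors in mice.

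Wnt9a was the most abundant member per gene length in CD34 negative CAFs, and the levels of Wnt9a and of Wnt11 in every CD34 negative library lay above those in every CD34 positive library. When the tumor was included in the model as a block, both were higher in CD34 negative CAFs by limma-voom, by 2.38-fold each. In that model Wnt2, a ligand made by stromal cells, was lower, but its call was lost when tumor 1 or tumor 2 was left out or the tumor was a random effect. Without the tumor term no member passed the threshold by limma-voom or edgeR. DESeq2 called 3, among them Wnt10b, which passed the filter on low counts only through the CD34 positive libraries. Limma-voom with sample quality weights called 2. Of 14855 genes tested, these fits called 18, 9, 698 and 161. Wnt10b, best known for restraining adipocyte formation, was nearly absent from CD34 negative CAFs and was detected in all 3 CD34 positive libraries, at levels that differed widely between tumors.

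The promoters of these 4 genes are shown because, with the tumor as a block, 2 of the genes were higher in CD34 negative CAFs and 1 was lower, while 1 was close to absent from that fraction. The table of RefSeq promoters used here (GRCm38.p6) matched 8 of the 10 members, with windows of 250 bases before to 50 bases after the start, and those of Wnt5a and Wnt10a were not analysed here. The stretches run 5′ to 3′ on the strand of the gene and leave out bases within exons of GENCODE M21 or beyond the RefSeq start of the gene. The Wnt2 stretch lies within the RefSeq gene, whose outermost start is further upstream. They are chr11:59306680-59306848 (plus strand, Wnt9a), chr7:98834862-98835083 (plus strand, the first of the listed Wnt11 starts), chr6:18030586-18030695 (minus strand, Wnt2) and chr15:98778207-98778400 (minus strand, Wnt10b). Capitals mark matches on either strand to any of 5 short motifs. The GC box of many promoters without a TATA box was searched as GGGCGG. The CCAAT box was searched by its name, and the TATA box, which places the start of transcription, as TATAAA. The E-box, bound by helix-loop-helix factors such as Myc, was searched as CACGTG. The core of the motif of TCF/LEF factors, the partners of beta-catenin, was searched as CTTTGA.
Wnt9a: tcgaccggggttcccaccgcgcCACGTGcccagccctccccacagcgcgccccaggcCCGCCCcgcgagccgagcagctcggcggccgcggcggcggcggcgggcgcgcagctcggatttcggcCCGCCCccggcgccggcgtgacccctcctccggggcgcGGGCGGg
Wnt11: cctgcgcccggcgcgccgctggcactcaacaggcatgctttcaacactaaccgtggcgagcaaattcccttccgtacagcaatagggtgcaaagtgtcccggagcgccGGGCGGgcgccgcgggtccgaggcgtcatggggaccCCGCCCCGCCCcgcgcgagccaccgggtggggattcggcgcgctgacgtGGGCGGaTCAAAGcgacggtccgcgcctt
Wnt2: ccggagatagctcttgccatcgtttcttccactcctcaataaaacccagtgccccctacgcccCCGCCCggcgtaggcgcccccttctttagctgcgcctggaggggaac
Wnt10b: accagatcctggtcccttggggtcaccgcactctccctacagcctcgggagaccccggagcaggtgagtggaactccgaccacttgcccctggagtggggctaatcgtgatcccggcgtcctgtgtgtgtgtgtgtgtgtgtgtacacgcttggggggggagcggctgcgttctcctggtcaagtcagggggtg

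Over the full windows of 300 bases, which reach past the stretches printed above, Wnt9a held 5 GC boxes and 1 E-box, and Wnt11 held 4 GC boxes, 1 TATA box and 1 TCF/LEF core. Wnt2 held 2 GC boxes and 1 CCAAT box, and none of the 5 motifs was found in the Wnt10b window. Overlapping matches were counted separately, as in the pair of adjoining GC boxes of Wnt11. Of 32851 promoter windows of the same length in the mouse genome, 35.7% held a GC box, 37.4% a CCAAT box, 16.0% a TCF/LEF core, 13.6% a TATA box and 7.2% an E-box. The Wnt9a window was 83.3% G or C and held 58 CpG dinucleotides, against medians of 52.7% and 7 over all windows, while those of Wnt11, Wnt10b and Wnt2 were 71.3%, 66.3% and 65.7% G or C. These matches describe the letters of the windows and say nothing about which factors bound there.

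The members lie on 7 chromosomes of GRCm38. Wnt9a (Entrez 216795) spans chr11:59306849-59333552 on the plus strand, 16.2 kb from Wnt3a, which is transcribed in the other direction. Wnt6 and Wnt10a lie 6.2 kb apart on chromosome 1 on the same strand, and Wnt10b (chr15:98770712-98778206, minus strand) is 11.7 kb from the endogenous Wnt1 gene. Wnt11 (Entrez 22411) spans chr7:98835084-98854747 and Wnt2 (Entrez 22413) spans chr6:17985474-18032772. The library kit does not keep strand, and 364 exonic bases of Wnt11 overlap the processed pseudogene Gm8398 on the opposite strand, as do 358 bases of Wnt5a with the antisense gene Gm2670. The count table lists neither of these partners, so their reads could not be told apart from those of the members.

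Libraries held between 16238059 and 86609267 counted reads, at which 3 reads amounted to 0.185 and 0.0346 counts-per-million (CPM). Cd34, the gene of the sort, was lower in CD34 negative CAFs, with a log2 fold change of −3.63 ± 0.44 (SE, adjusted p = 0.0414, limma-voom), and Pdgfra, the gene of the reporter, did not pass the threshold (−0.16 ± 0.24). The library of CD34 negative CAFs from tumor 3 stood apart, with 159 genes at 0 that averaged at least 2 CPM in the other libraries, against 1 to 31 such genes in the rest. All 5 fibroblast markers were detected in every library, and their summed level was 24060 to 37050 CPM in CD34 negative and 25190 to 33420 CPM in CD34 positive CAFs. Col1a2 was the largest term of that sum in every library, and the fibroblast markers Dcn and Lum were lower in CD34 negative CAFs with the tumor as a block (adjusted p = 0.00154 and 0.014, limma-voom). The 7 epithelial markers summed to 57.12 to 146.3 CPM and 19.04 to 139.9 CPM, with Epcam and Cdh1 above 0 in all libraries, and both sums were lowest in tumor 3. Both pericyte markers, Rgs5 and Mcam, were higher in the CD34 negative libraries, where they summed to 41.73 to 46.74 CPM against 4.411 to 17.49 CPM. With the block Mcam passed the threshold and Rgs5 did not (adjusted p = 0.00252 and 0.0803, limma-voom). The endothelial markers summed to 1.756 to 13.57 CPM in CD34 negative and 2.206 to 14.72 CPM in CD34 positive CAFs. The macrophage and leukocyte markers summed to 13.28 to 16.63 CPM against 8.991 to 16.43 CPM, so both of these lists overlapped. The 4 muscle markers summed to 2.798 to 13.68 CPM against 1.501 to 1.848 CPM, with Myf5 at 0 in every library and Myog at 0 in 4 of 6. Des was higher with the block (adjusted p = 0.0362, limma-voom). Acta1 was not, at 0.10, 0.33 and 0.23 CPM against 1.11, 0.13 and 0.40 CPM. The Schwann cell markers summed to 13.89 to 22.66 CPM in CD34 negative and 7.499 to 12.01 CPM in CD34 positive CAFs. Col20a1 was at 4.306, 3.945 and 7.137 CPM in CD34 negative against 1.355, 1.767 and 2.72 CPM in CD34 positive CAFs. Mbp overlapped between the fractions, at 6.853, 12.68 and 15.52 CPM against 9.361, 8.509 and 4.411 CPM, and Sox10 was at 0 in 1 library. The part of these markers in the ligand differences was not tested. In sorted populations measured in bulk, fewer cells of a type and less RNA per cell cannot be told apart.

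Per gene length, as CPM divided by the length of the gene in kilobases (RPKM), the CD34 negative CAFs expressed Wnt9a most, at 57.5 ± 3.7 RPKM (SD, n = 3). Its lowest library, at 53.3 RPKM, lay above the highest Wnt11 library, at 31.1 RPKM. Wnt11 followed at 26.9 ± 5.8 RPKM, Wnt2 at 21.4 ± 9.5 RPKM and Wnt5a at 10.5 ± 2.3 RPKM. The library ranges of Wnt11 and Wnt2 overlapped, as did those of Wnt2 and Wnt5a, so that the order of those neighbours was not resolved. Wnt16 (2.49 ± 1.60 RPKM) and Wnt5b (1.13 ± 0.41 RPKM) overlapped each other and lay below all libraries of Wnt5a. Wnt4, Wnt6, Wnt10a and Wnt10b each averaged under 0.3 RPKM, and within this group every neighbour overlapped the next.

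In CD34 positive CAFs the highest mean was that of Wnt2, at 34.2 ± 12.0 RPKM, followed by Wnt9a at 24.8 ± 6.9 RPKM, with overlapping ranges. Wnt11 stood at 11.1 ± 1.5 RPKM, below every Wnt9a library, and overlapped Wnt5a at 7.69 ± 3.05 RPKM. Wnt16, Wnt10b and Wnt5b came next, at 5.19 ± 1.79, 3.62 ± 4.65 and 3.03 ± 1.56 RPKM. Wnt5a overlapped Wnt16, Wnt16 overlapped Wnt10b and Wnt10b overlapped Wnt5b, whereas every Wnt5b library lay above those of Wnt4. Wnt4, Wnt6 and Wnt10a again stayed under 0.7 RPKM in every library. The place of Wnt9a in this fraction depended on the scale, since it ranked first when levels were not divided by gene length.

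The 10 members together reached 116.2, 123.8 and 121.0 RPKM in the CD34 negative libraries of tumors 1, 2 and 3, and 84.28, 94.73 and 91.91 RPKM in the CD34 positive libraries. The summed level was thus higher in all CD34 negative libraries, and its makeup differed. Wnt9a supplied 47.9 ± 4.5% of the summed level in CD34 negative and 27.8 ± 9.2% in CD34 positive CAFs, with no overlap between libraries. Wnt2 supplied 17.7 ± 7.5% and 37.4 ± 11.5%, and its nearest libraries, at 23.4% and 24.2%, were close although they did not overlap. The RPKM of Wnt2 did overlap between the fractions, and a share also depends on the levels of the other members. The share of Wnt11 was 22.4 ± 5.1% against 12.3 ± 1.6%, whereas that of Wnt5a was 8.67 ± 1.79% against 8.66 ± 3.96%.

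**Figure D1:**
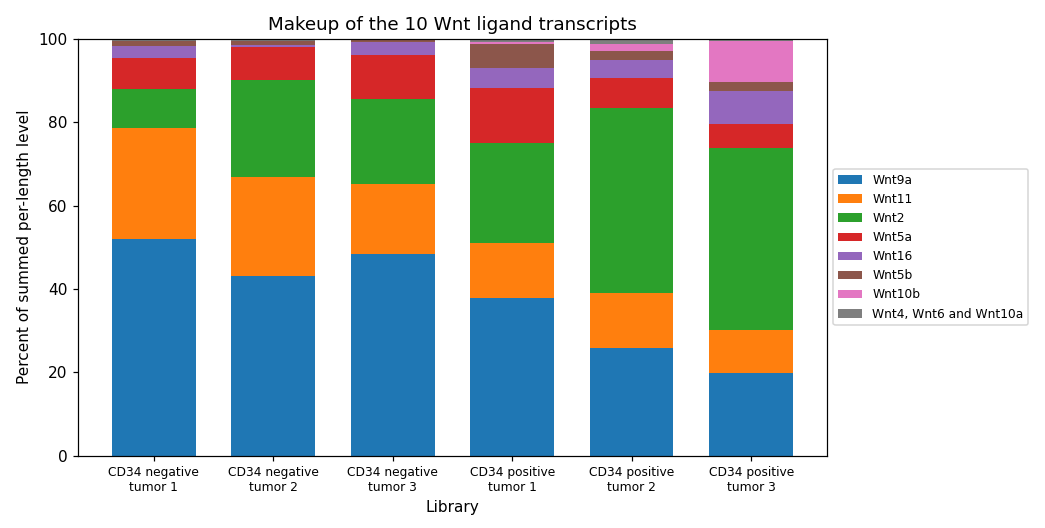
Stacked bars give the percent that each ligand contributed to the summed per-length level (RPKM) of the 10 members in each library, with Wnt4, Wnt6 and Wnt10a drawn together. Wnt9a and Wnt11 make up the larger part of each CD34 negative bar, Wnt2 reaches 24.2%, 44.4% and 43.7% in CD34 positive CAFs, and Wnt10b is visible mainly in the CD34 positive library of tumor 3, at 9.74%.

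The comparison of the CD34 negative with the CD34 positive fraction addressed which ligands differ between the CAF classes that CD34 separates. Fold changes are given as log2 of CD34 negative over CD34 positive, fitted with limma-voom, and p-values were adjusted with the Benjamini-Hochberg procedure over all 14855 genes tested. Of the 10 members, 9 passed the filter on low counts, and Wnt10b did so only through the CD34 positive libraries, so that it had to differ. In the model without a tumor term 0 members passed the threshold of 0.05 by limma-voom, against 0.121% of all genes tested, and 4, Wnt10b among them, had an unadjusted p under 0.05, against 14.3% of all genes. The edgeR quasi-likelihood test likewise called 0, against 0.0606% of all genes, with 4 at an unadjusted p under 0.05, against 12.5%. DESeq2 called Wnt9a, Wnt11 and Wnt10b, where 4.7% of all genes passed. With the tumor as a block, which compares the fractions of the same tumor, limma-voom called 3 members, where 8.57% of all genes passed. Of these, 2 were higher and 1 was lower, against 4.32% and 4.25% of all genes. The median log2 fold change of the 9 members, Wnt10b included, was −0.80, beside −0.03 over all genes tested. With Wnt10b at its bound and Wnt6 without the tumor at or under 3 reads the median was −0.72, the value of Wnt6. Both medians hold Wnt10b, which had to be lower, so they are a description and no support for a difference.

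**Figure D2:**
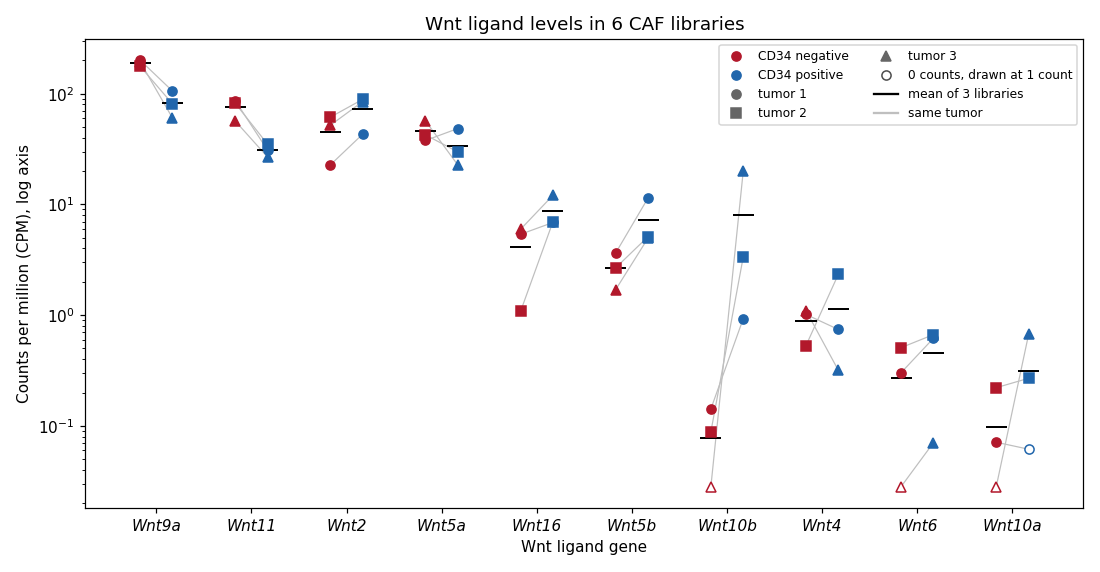
Points give the level of each ligand in CPM on a log axis in the 6 libraries, coloured by fraction and shaped by tumor, with grey lines joining the fractions of a tumor and black bars at the mean of 3 libraries. Every CD34 negative library lies above every CD34 positive library for Wnt9a and Wnt11, and the reverse holds for Wnt16, Wnt5b and Wnt10b. Libraries without a read are drawn as open symbols at the level of 1 read.

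Wnt9a, a ligand with a known role in joint formation, reached 200.7, 177.0 and 194.6 CPM in the CD34 negative libraries of tumors 1, 2 and 3, and 105.7, 80.91 and 60.33 CPM in the CD34 positive libraries. The CD34 negative levels lay close together, the CD34 positive levels were more spread, and the groups did not overlap. The log2 fold change was 1.27 ± 0.22 (SE, 95% interval 0.77 to 1.77, adjusted p = 0.0735, limma-voom), and 1.25 ± 0.16 with the tumor as a block (adjusted p = 0.00272). Within tumors 1, 2 and 3 the log2 ratios were 0.92, 1.13 and 1.69. By limma-voom without the block Wnt9a passed when tumor 1 was left out (log2 fold change 1.39, adjusted p = 0.0409). In that fit 86 of 14893 genes were called, against 18 of 14855 with all tumors. With all tumors and no block, DESeq2 and limma-voom with sample quality weights called Wnt9a (adjusted p = 0.000284 and 0.0494). The study singled out Wnt9a partly from these same libraries, so its direction here is not independent evidence.

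Wnt11, which is mostly linked to signaling without beta-catenin, was measured at 86.58, 81.90 and 56.64 CPM in CD34 negative and 30.89, 34.98 and 26.78 CPM in CD34 positive CAFs. All CD34 negative libraries were again above all CD34 positive libraries. Its log2 fold change was 1.24 ± 0.23 (95% interval 0.72 to 1.76, adjusted p = 0.0769, limma-voom), and 1.25 ± 0.16 with the block (adjusted p = 0.00222). The ratios within tumors were 1.49, 1.23 and 1.08, and the call with the block held when any tumor was left out, as it did for Wnt9a.

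Wnt2 stood at 22.75, 61.38 and 51.85 CPM in CD34 negative and 43.14, 88.95 and 84.95 CPM in CD34 positive CAFs. Tumor 1 was low in both fractions, so that the groups overlapped although the CD34 negative fraction was the lower one in each tumor. The spread of the mean log2 level between tumors was 1.24, larger than the mean log2 ratio within tumors, −0.72. The log2 fold change was −0.80 ± 0.41 without the block (adjusted p = 0.42, limma-voom) and −0.68 ± 0.15 with it (adjusted p = 0.0214). This call was the least stable of the members called with the block, since the adjusted p was 0.0594 without tumor 1 and 0.0502 without tumor 2, and 0.143 with the tumor as a random effect.

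**Figure D3:**
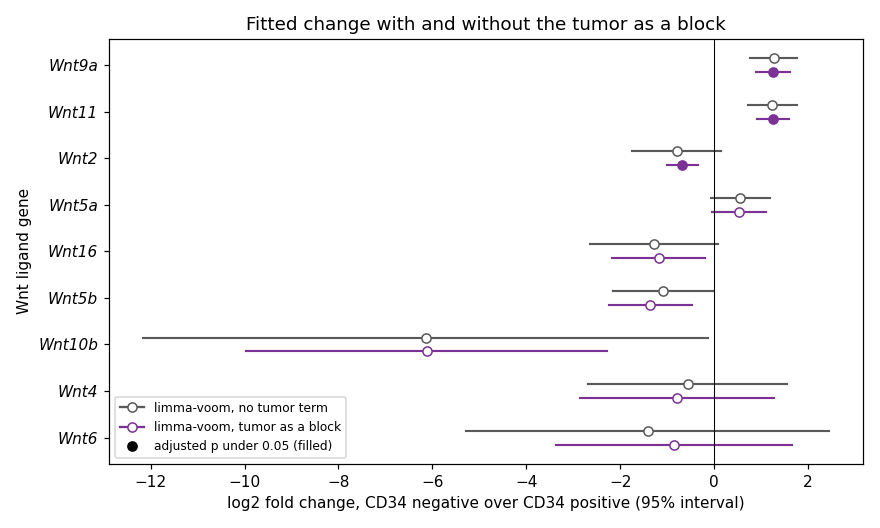
Circles give the log2 fold change of CD34 negative over CD34 positive CAFs for the 9 tested ligands, with lines for 95% intervals, from limma-voom without a tumor term (grey) and with the tumor as a block (purple). Filled circles mark an adjusted p under 0.05, reached by Wnt9a, Wnt11 and Wnt2 in the model with the block. The interval of Wnt10b is the widest.

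Wnt5a, the prototype of signaling without beta-catenin, was measured at 37.80, 42.47 and 56.78 CPM in CD34 negative and 48.46, 29.78 and 22.69 CPM in CD34 positive CAFs. It was the higher in CD34 negative cells of tumors 2 and 3 and the lower in tumor 1, with log2 ratios of −0.36, 0.51 and 1.32. The log2 fold change of 0.55 ± 0.27 did not pass the threshold (adjusted p = 0.399, and 0.268 with the block, limma-voom). Without tumor 1 the value with the block was 0.82 (adjusted p = 0.0348).

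Wnt5b, a close paralog of Wnt5a, had the opposite sign. It was found at 3.65, 2.68 and 1.71 CPM in CD34 negative and 11.45, 5.13 and 4.97 CPM in CD34 positive CAFs, with no overlap between the groups. The log2 fold change was −1.08 ± 0.46 (adjusted p = 0.341, limma-voom) and −1.36 ± 0.39 with the block (adjusted p = 0.0682), so the difference did not pass the threshold in either model. Without tumor 3 the value with the block was −1.31 (adjusted p = 0.0217).

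Wnt10b had 8, 4 and 0 reads in the CD34 negative libraries of tumors 1, 2 and 3, or 0.14, 0.089 and 0 CPM. The CD34 positive libraries held 15, 286 and 565 reads, or 0.93, 3.35 and 19.93 CPM. Levels in the CD34 positive fraction therefore differed widely between tumors, whereas the CD34 negative fraction held at most 8 reads in each. The CD34 negative level was 6.34-fold lower in tumor 1 and 33.7-fold lower in tumor 2 on the voom scale. In tumor 3 it was at least 244-fold lower, counting 3 reads for the library at 0. This bound covers counting error only, and in that library 159 genes that averaged at least 2 CPM elsewhere were also at 0. The fitted log2 fold change of −6.14 ± 2.63 (adjusted p = 0.34, limma-voom; −6.12 ± 1.71 and 0.0592 with the block) depends on how the 0 is treated and is no bound. DESeq2 gave an adjusted p of 9.39e-07, and limma-voom with the block and without tumor 3 gave −4.10 (adjusted p = 0.0135). Because Wnt10b was tested only for its reads in CD34 positive CAFs, these p-values are a description and no support for the difference. The 2 keratinocyte markers were also lower in CD34 negative CAFs. Krtdap was at 1.60, 2.85 and 3.97 CPM in CD34 positive CAFs and at most 0.0446 CPM in CD34 negative CAFs. Krt10 was at 8.499, 4.157 and 7.315 CPM against 3.602, 3.455 and 1.076 CPM, and did not pass the threshold (adjusted p = 0.447, and 0.208 with the block, limma-voom). Both keratinocyte markers together summed to 7.008 to 11.29 CPM against 1.076 to 3.619 CPM, and their part in the Wnt10b difference was not tested.

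Wnt16, known for its role in cortical bone, was measured at 5.38, 1.09 and 5.97 CPM in CD34 negative and 6.87, 6.99 and 12.10 CPM in CD34 positive CAFs. The groups did not overlap, but the highest CD34 negative and lowest CD34 positive libraries were close, and the log2 ratio of tumor 2, −2.67, was far from those of tumors 1 and 3, −0.36 and −1.02. The log2 fold change was −1.29 ± 0.60 (adjusted p = 0.378, and 0.144 with the block, limma-voom), and −0.51 without the CD34 negative library of tumor 2.

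The remaining 3 members, Wnt4, Wnt6 and Wnt10a, had few reads. Wnt4, which acts downstream of progesterone in the mammary epithelium, was measured at 1.02, 0.53 and 1.10 CPM in CD34 negative and 0.74, 2.34 and 0.32 CPM in CD34 positive CAFs. Its log2 ratios of 0.40, −2.11 and 1.73 had no common sign, and its fitted change of −0.56 ± 0.92 (adjusted p = 0.821, limma-voom) turned to 0.85 without the CD34 positive library of tumor 2. Wnt6 had 17, 23 and 0 reads in CD34 negative and 10, 57 and 2 in CD34 positive libraries, with an adjusted p of 0.743 by limma-voom. Wnt10a had 4, 10 and 0 against 0, 23 and 19 reads and failed the filter. In tumor 3 Wnt10a was at least 8.22-fold lower in CD34 negative CAFs, while in a fit without the filter its log2 fold change was −1.50 ± 1.49 (adjusted p = 0.767, limma-voom). The CD34 negative library of tumor 3, in which Wnt6, Wnt10a and Wnt10b were all at 0 reads, is the one with the most absent genes.

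Across the members, the CPM of the fractions did not overlap for 4 of the 8 tested ligands other than Wnt10b, Wnt9a and Wnt11 being higher and Wnt5b and Wnt16 lower in CD34 negative CAFs, beside 20.4% of all genes tested. These 4 and Wnt2, which was lower, had log2 ratios of the same sign in all 3 tumors, as 46.3% of all genes tested did. Wnt10b also did not overlap, but is left out of both counts because of how it passed the filter. Wnt6 is left out of the count of signs, since it had 0 and 2 reads in tumor 3. With 3 libraries per group an exact two-sided permutation test of a single gene cannot give a p below 0.1, and with 3 pairs not below 0.25, so no such test is given.

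**Figure D4:**
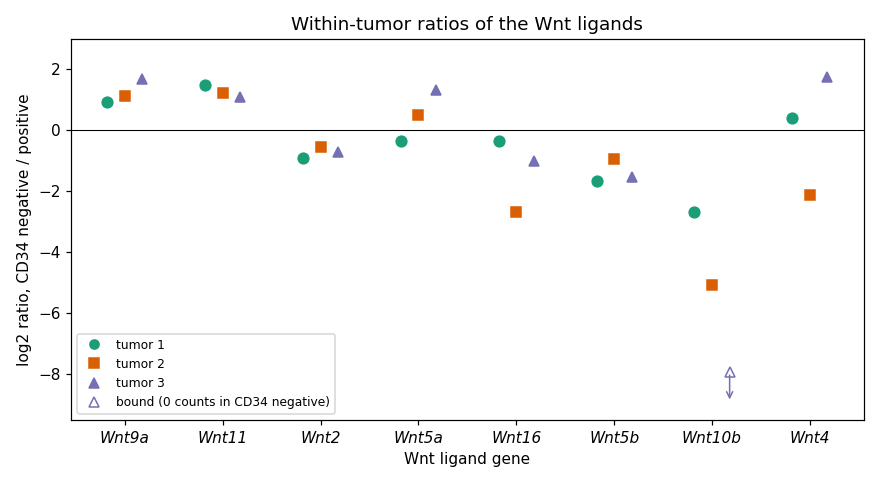
Points give the log2 ratio of CD34 negative to CD34 positive CAFs within tumors 1, 2 and 3 for 8 ligands. Wnt6 and Wnt10a are not drawn because of their low counts, and the open triangle of Wnt10b in tumor 3 is a bound, with an arrow towards lower values. Wnt9a and Wnt11 lie above 0 in each tumor, Wnt2, Wnt16, Wnt5b and Wnt10b lie below it, and Wnt5a and Wnt4 change sign.

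For the members called with the block, the genes with the most similar 3 within-tumor log2 ratios were sought among 8944 tested genes with a mean of at least 3 on the log2 CPM scale. Nearest to Wnt9a were Hspa1a, Hc and Inf2, at root mean square differences of 0.063, 0.068 and 0.070. Nearest to Wnt11 were Agrn, Jak3 and Adamts2, at 0.085, 0.139 and 0.146. Nearest to Wnt2 were Sp100, Ccnyl1 and Pet100, at 0.046, 0.075 and 0.076. These likenesses rest on 3 tumors and are a description.

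Of the 9 other Wnt genes, 3 passed the filter and none was called with or without the block, beside 8.57% and 0.121% of all genes. Wnt1 itself, the gene of the transgene, was measured at 2.60, 2.52 and 0.36 CPM in CD34 negative and 0.99, 1.72 and 1.34 CPM in CD34 positive CAFs, with a log2 fold change of 0.02 ± 0.84 (adjusted p = 0.996, limma-voom). Its reads can come from the transgene as well as from the endogenous gene, and its level did not follow that of the neighbouring Wnt10b. Wnt2b, the paralog of Wnt2, ranged from 7.76 to 9.24 CPM and from 7.90 to 11.71 CPM (log2 fold change −0.18 ± 0.28, adjusted p = 0.808). Wnt7b stayed under 1 CPM throughout, with 0 reads in the CD34 negative library of tumor 3 (adjusted p = 0.765). Over all 6 libraries Wnt9b had 31 reads, Wnt8b 11, and Wnt3 and Wnt7a 2 each, while Wnt3a, the neighbour of Wnt9a, and Wnt8a had 0.

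The other genes of the pathway were followed in lists by their role. Of 83 listed genes, the 9 other Wnt genes included, 68 were tested. Without the block 0 were called by limma-voom or by edgeR. An unadjusted p under 0.05 was reached by 21 and 15 of them, beside the 14.3% and 12.5% of all genes. DESeq2 without the block called 9, beside 4.7% of all genes. With the block, limma-voom called 13, of which 9 were higher and 4 lower in CD34 negative CAFs, beside 8.57% of all genes, with 4.32% higher and 4.25% lower. The adjusted p-values in the next paragraphs are those of limma-voom with the block, and the log2 fold changes are from the same fit.

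Among 9 genes of Wnt acylation and secretion, 1 was called, beside 8.57% of all genes. Porcn, the acyltransferase without which Wnt proteins are not secreted, rose from 11.88, 9.22 and 8.47 CPM in CD34 positive to 22.36, 22.23 and 25.20 CPM in CD34 negative CAFs, with a log2 fold change of 1.28 ± 0.23 (adjusted p = 0.00988). Its groups did not overlap. Wls, the carrier of acylated Wnt proteins, was at 446.1 to 532.0 CPM against 375.1 to 473.2 CPM (0.17 ± 0.14, adjusted p = 0.537), and the cargo receptors Tmed2 and Tmed10 did not pass the threshold either, at −0.17 and 0.19.

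Of 15 tested receptors and co-receptors, 4 were higher and 1 lower, beside 4.32% and 4.25% of all genes. Fzd1, a Frizzled receptor, rose by 1.17 ± 0.18 (adjusted p = 0.00615) and Ptk7, a co-receptor of planar cell polarity signaling, by 1.50 ± 0.20 (adjusted p = 0.0029). Lrp5, the co-receptor of beta-catenin signaling, rose by 0.77 ± 0.15 (adjusted p = 0.0129). Fzd4, which binds Norrin as well as Wnt proteins, fell from 26.99, 19.12 and 38.60 CPM in CD34 positive to 8.90, 5.91 and 10.76 CPM in CD34 negative CAFs (−1.72 ± 0.22, adjusted p = 0.00233). The fifth called receptor was Fzd2 (adjusted p = 0.0176), named after its values were seen.

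The secreted antagonists, which bind Wnt proteins or their co-receptors outside the cell, included calls in both directions, 3 of 8 tested being higher and 2 lower, beside the same shares of all genes. Dkk3, a divergent member of the Dickkopf family, was at 581.7, 629.1 and 780.2 CPM in CD34 negative and 337.8, 221.9 and 126.6 CPM in CD34 positive CAFs (1.64 ± 0.27, adjusted p = 0.00757). Frzb, a secreted Frizzled-related protein, was higher as well (2.21 ± 0.48, adjusted p = 0.022), as was Dkk2 (adjusted p = 0.0429), also named after its values were seen. In contrast, Sfrp4 and Sfrp2 of the same Frizzled-related family were lower. Sfrp4 was at 129.5, 5.62 and 34.19 CPM in CD34 negative and 853.2, 121.1 and 417.7 CPM in CD34 positive CAFs (−3.33 ± 0.25, adjusted p = 0.000237), and Sfrp2 changed by −0.79 ± 0.17 (adjusted p = 0.0205).

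**Figure D5:**
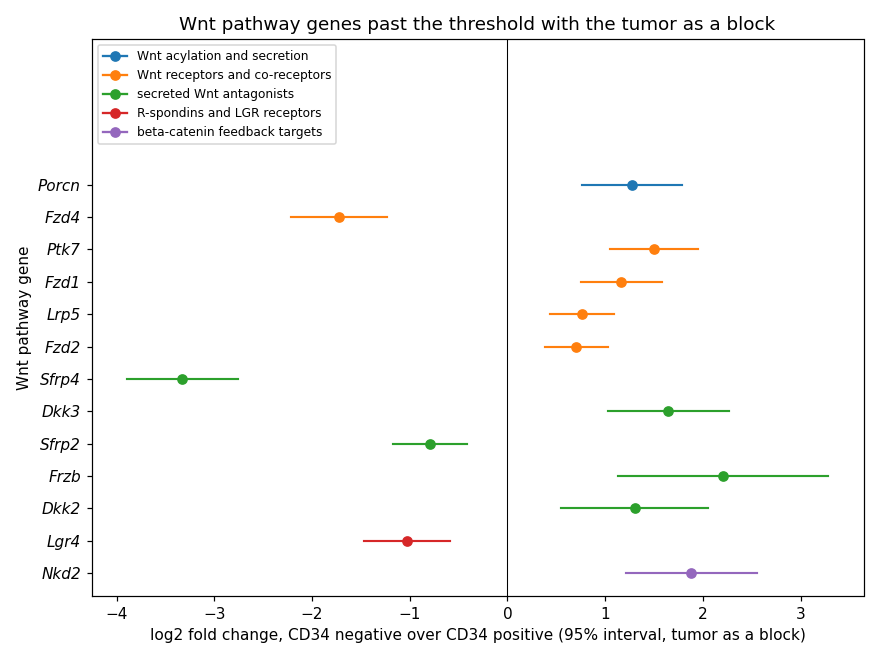
Points give the log2 fold change of CD34 negative over CD34 positive CAFs, with 95% intervals, for the 13 Wnt pathway genes called by limma-voom with the tumor as a block, coloured by role. The 9 genes to the right of 0 include Porcn, Fzd1, Ptk7 and Nkd2, and the 4 to the left are Fzd4, Sfrp4, Sfrp2 and Lgr4.

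Among 5 tested feedback genes, whose transcription is raised by beta-catenin in many tissues, 1 was called, beside 8.57% of all genes. Nkd2, an inhibitor of Dishevelled, was at 263.7, 306.5 and 331.0 CPM in CD34 negative and 123.2, 106.3 and 39.44 CPM in CD34 positive CAFs (1.88 ± 0.30, adjusted p = 0.00615). Its paralog Nkd1 (0.50 ± 0.25), Tcf7 (1.11 ± 0.44) and Apcdd1 (0.35 ± 0.17) did not pass, with adjusted p-values of 0.284, 0.169 and 0.259. Another list joined R-spondins and their LGR receptors, which protect Frizzled proteins from turnover, with Rnf43 and Znrf3, the ligases that turn Frizzled proteins over. Of its 8 tested genes only Lgr4 was called, beside the same share of all genes. Lgr4 fell by 1.03 on the log2 scale (SE 0.20, adjusted p = 0.0129). Rspo2 (−2.42 ± 0.87, adjusted p = 0.133), Rspo3 (adjusted p = 0.24) and Lgr5 (1.07 ± 0.42, adjusted p = 0.166) did not pass the threshold.

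None of 11 intracellular transducers, which include the nuclear factors Tcf7l1 and Tcf7l2, and none of 9 planar cell polarity genes was called in either model. Of all genes, 8.57% were called with the block and 0.121% without it. The smallest p-values were those of Dvl3, an adaptor below Frizzled (0.60 ± 0.18, adjusted p = 0.075), and Daam1, a formin of the polarity branch (−0.71 ± 0.19, adjusted p = 0.0508). Next in the lists were Tcf7l1, Gsk3a and Dvl1, at −0.48 ± 0.18, 0.31 ± 0.14 and 0.34 ± 0.18, and Prickle2, Prickle1 and Celsr2, at −0.35 ± 0.14, 0.28 ± 0.18 and 0.63 ± 0.53. The median log2 fold change without the block was 0.31 for the receptors, 0.66 for the antagonists, 0.52 for the feedback genes, −0.04 for secretion, −0.11 for R-spondins, LGR receptors and their ligases, 0.03 for the transducers and 0.06 for the polarity genes, beside −0.03 over all genes tested.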

How the data were processed

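Sorted CAFs were snap frozen, RNA was extracted with a micro column kit, and libraries were made with TruSeq RNA v2 from at least 10 ng of total RNA. The authors aligned reads to GRCm38/mm10 and counted them per Entrez gene with featureCounts, and they deposited raw counts with replicates kept apart. The strand setting and the handling of reads with several matches were not given in the sources used here. Groups and tumor numbers came from the sample titles. Each tumor counted as 1 replicate per fraction.

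Genes were filtered with filterByExpr (minimum count 10), scaled by TMM (edgeR 4.0.16) and tested two-sided with voom and limma 3.58.1 in R 4.3.3, without a tumor term, at an adjusted p of 0.05. A fit with the tumor as a replicate block stands beside it, because both fractions of a pair came from one tumor. Across genes, the fractions of tumors 1, 2 and 3 departed together from their group means, with correlations of 0.373, 0.350 and 0.219. CPM and RPKM of genes were scaled by library size and TMM factor, those of marker lists, keratinocyte markers and bounds by the library total alone. Bounds used 3 counts per library and cover counting error only. Counts were also tested with edgeR and DESeq2 1.42.0, and scripts were tested on simulated data. The members and lists were chosen with earlier results of these data known. Named genes were all members, other Wnt genes with at least 10 counts, the 4 genes of each list with the smallest p with the block, the markers Cd34 and Pdgfra, neighbouring or overlapping genes, and the 3 genes most like each called member.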

Additional observations from a re-analysis of the deposited data

How the results depend on the processing

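Of the 9 tested ligands, 8 kept the sign of their log2 fold change under every alternative that gave a value (scaling, filter, test, thinning, tumor as a block, and each library or tumor left out). Wnt4 was the exception. It turned positive with limma-trend (0.0128), the replicate block with edgeR (0.0528) or DESeq2 (0.0498), and without tumor 2, at 1.175 without and 1.034 with the block. With 1 library left out Wnt4 ran from −1.167 to 0.849.

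No ligand was called without the block by scaling or filter. The numbers of ligands and of pathway genes called were 3 and 9 with DESeq2, 2 and 2 with sample quality weights, 3 and 13 with the replicate block, 3 and 9 with the block in edgeR, 5 and 18 with the block in DESeq2, and 2 and 9 with the tumor as a random effect. Without tumor 1 they were 1 and 3. With the block and without tumors 1, 2 and 3 in turn they were 3 and 13, 2 and 11, and 5 and 18. With counts thinned to the smallest library and the block, an alternative chosen after seeing the data, they were 3 and 14. The ligands called with DESeq2, with or without the block, and with the block in limma-voom without tumor 3 include Wnt10b. That gene passed the filter only through the CD34 positive libraries. Leaving out single libraries gave 0 ligands and 0 to 1 pathway genes. Of 14855 genes tested, 18 were called without the block, 9 by edgeR, 698 by DESeq2 and 161 with sample quality weights. The block called 1273, or 575 in edgeR and 1733 in DESeq2, and the random effect 703. Without tumor 1 the count was 86 of 14893. With the block and without tumors 1, 2 and 3 in turn it was 1134 of 14893, 851 of 14634 and 2019 of 15514. Thinning with the block gave 1075 of 13684, and leaving out single libraries gave 0 to 34. Apart from Wnt9a, Wnt11 and Wnt2, the replicate block in limma-voom changed no call among the ligands.

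Cd34 missed the threshold with edgeR (−3.67) and without tumor 2 (−3.51) or tumor 3 (−3.45), and ran from −3.90 to −3.17 with 1 library left out, where it was called only without the CD34 positive library of tumor 1. The rank of Wnt9a in CD34 positive CAFs was 1 instead of 2 without division by gene length. The cause of these differences was not tested. Low counts limited Wnt4, Wnt6, Wnt10a and Wnt10b. Some alternatives gave no adjusted p for Wnt4, Wnt6 or Wnt10b, because a stricter filter removed the gene or DESeq2 left it out.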
